A study of Rattus norvegicus with 47 samples.

Results

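Plin2, Acads and Cpt2 are 3 genes of lipid storage and fatty acid oxidation, and their transcripts were followed in the rat testis after methoxyacetic acid (MAA). Every probe that carries 1 of these symbols was taken, which gave 4 of the 20500 probes and 3 of the 9644 genes with a symbol. Plin2 had 2 probes (11803 and 18201), Acads had 1 (7776) and Cpt2 had 1 (7513). The symbols were chosen by name, with earlier results of these data known.

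Sexually mature Sprague-Dawley males, 90 days old, were injected intraperitoneally with MAA at 650 mg/kg or with saline and killed 4, 8, 12 or 24 h later. No group carried a genetic change, each array held a piece of the right testis of 1 rat, and the saline group of 4 h had 5 rats while the other 7 groups had 6. MAA is formed in the body from a glycol ether solvent and is toxic to spermatocytes. Each of the 47 testis RNAs was hybridised in 2 colours with a universal rat reference RNA.

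Neutral lipid is kept in droplets whose coat is made of perilipins. In the testis such droplets lie mainly in Sertoli cells, which take up and digest dying germ cells, and in Leydig cells, which store sterol esters. Fatty acids released from droplets are bound to coenzyme A, carried into mitochondria as carnitine esters and shortened there by beta-oxidation. Plin2 (perilipin 2, also called adipophilin) coats droplets in most cell types. Cpt2 (carnitine palmitoyltransferase 2) sits on the inner mitochondrial membrane and turns carnitine esters back into coenzyme A esters. Acads (short-chain acyl-CoA dehydrogenase) carries out the first step of beta-oxidation on the shortest chains and passes its electrons to the electron transfer flavoprotein.

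Levels are given as M, the log2 ratio of testis to reference after loess normalization within the array, so an M of 0 means equal signal in both RNAs. The testis RNA was read from the channel headed Cy3, although the labels name Cy5 for it, so each sign here is opposite to the one the labels would give. Over 29 germ cell marker genes the median log2(Cy3/Cy5), with the array's median at 0, was 0.33 to 1.33 and lay above 0 on 47 of 47 arrays. The array of MAA_12h animal 27 carries the same reference channel as that of MAA_8h animal 15. Which array holds the copied channel was not determined, and animal 15 was kept in the fit without animals 3 and 27. Without MAA_8h animal 15 alone, the 8 h difference was 0.26 for Plin2 probe 11803 and 0.36 for Acads. The array of MAA_4h animal 3 is the 1 whose removal raised the calls over all probes most, to 614 at 12 h and 777 at 24 h. In a fit without animals 3 and 27, added after seeing the data, Plin2 probe 11803 differed by 0.41 at 12 h (adjusted p = 0.0312, limma), Acads by 0.46 at 12 h (adjusted p = 0.0846, limma) and Cpt2 by -0.43 at 24 h (adjusted p = 0.0154, limma). Over all probes, 4, 2, 520 and 612 were called at 4, 8, 12 and 24 h by limma at a Benjamini-Hochberg adjusted p under 0.05. At 12 h 347 of these were higher and 173 lower, and at 24 h 461 were higher and 151 lower. With the authors' deposited ratio the split was 128 higher and 266 lower at 12 h and 165 higher and 213 lower at 24 h. With median centring it was 28 higher and 125 lower at 12 h and 20 higher and 173 lower at 24 h, and with the testis channel alone 224 higher and 237 lower at 12 h and 557 higher and 518 lower at 24 h. With the processed channels it was 129 higher and 233 lower at 12 h and 152 higher and 202 lower at 24 h.

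Of the 4 probes, 1 rose at 12 h (Plin2, probe 11803) and 1 fell at 24 h (Cpt2), and none was called at 4 or 8 h by limma. At an unadjusted p under 0.05, 2 of the 4 passed at 4 h and 2 at 8 h, where 7.40% and 7.11% of all probes did. The share of all probes called was 0.0195% at 4 h, 0.00976% at 8 h, 2.54% at 12 h and 2.99% at 24 h. By direction, 1.69% of all probes were called higher and 0.844% lower at 12 h, and 2.25% higher and 0.737% lower at 24 h. In whole testis, fewer cells of a type and less RNA per cell cannot be told apart.

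**Figure D1:**
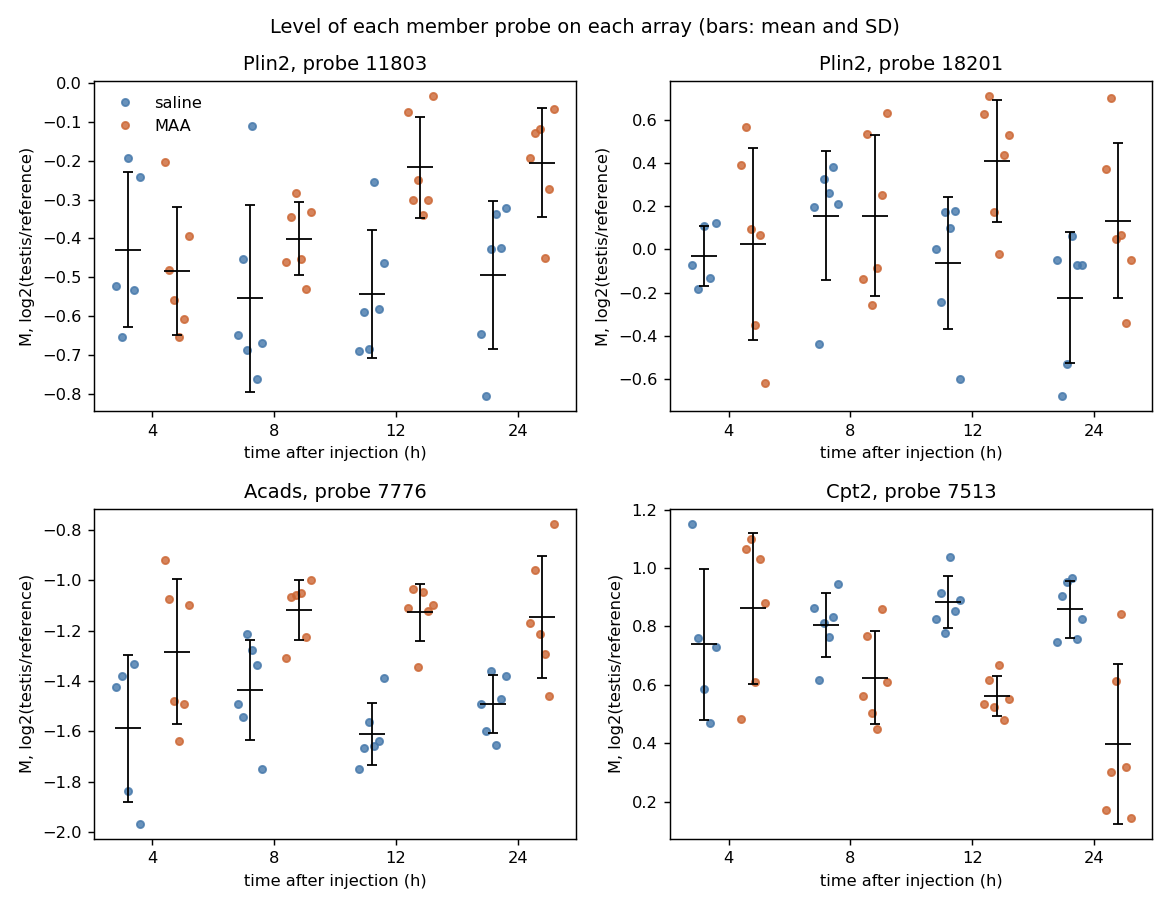
Level of each probe on each of the 47 arrays, as M = log2(testis/reference), against time after injection in hours, with saline in blue and MAA in orange and bars for the mean and SD of each group. Acads and Cpt2 separate completely at 12 h, and all but 1 MAA array lie below the saline arrays for Cpt2 at 24 h.

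Plin2 rose at 12 h. Its probe 11803 (Gene ID 298199) stood above background on 47 of 47 arrays. At 12 h M was -0.69 at lowest, -0.59 at the median and -0.25 at highest in the 6 saline rats. In the 6 MAA rats it was -0.34, -0.28 and -0.03. All 6 MAA rats lay above the saline mean and 3 of them above every saline rat, so the groups overlapped through saline animal 30. Its array was hybridised on a date that held saline arrays only. The others of that date were saline_4h animal 6 (M of -0.19), saline_8h animal 18 (-0.11) and saline_24h animal 42 (-0.34). For these arrays rat and date cannot be told apart. With the hybridisation dates in the fit the difference was 0.42 ± 0.10 (SE) on the log2 scale, a 1.34-fold rise with an adjusted p of 0.0229 (limma). Without each array in turn the rise stayed past the threshold in 43 of 47 fits. The adjusted p was 0.0509 without saline_12h animal 25, 0.0602 without saline_12h animal 29, 0.0561 without MAA_12h animal 31 and 0.142 without MAA_12h animal 36. Within the 2 dates that held both treatments at 12 h it was 0.36 (2 rats of each kind) and 0.49 (1 MAA rat and 2 saline rats). The call was lost in 6 of 12 other settings of the processing or the fit. Among them were median centring (0.27), the authors' deposited ratio (0.36, adjusted p = 0.0699 with limma) and a fit without dates (0.33, adjusted p = 0.0923 with limma). The call held without saturated spots, with the filter on dim probes and with an intensity trend and robust prior. Those settings leave the estimate of 0.42 as it was and change only the prior or the number of tests. The authors' series table, in which 39 columns equal the ratio of another array, gave -0.11.

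At 24 h the saline rats had M of -0.81 at lowest, -0.43 at the median and -0.32 at highest for probe 11803. The MAA rats had -0.45, -0.16 and -0.07. Of the 6 MAA rats 5 lay above every saline rat, and MAA_24h animal 44 lay among the saline values. The difference was 0.32 ± 0.10 (SE), 1.25-fold, and its adjusted p of 0.0711 (limma) missed the threshold. Without MAA_4h animal 3 the adjusted p was 0.0459 and without MAA_24h animal 44 it was 0.0431 (limma). Without saline_24h animal 38 the difference was 0.24 (adjusted p = 0.235, limma), and with median centring it was 0.048 (adjusted p = 0.944, limma). Within the 2 shared dates of 24 h the difference was 0.49 and 0.20.

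At the early times Plin2 overlapped widely between treatments. At 4 h the 5 saline rats had M of -0.65, -0.53, -0.52, -0.24 and -0.19, and the MAA rats had -0.65 at lowest, -0.52 at the median and -0.20 at highest. The difference of 0.02 ± 0.10 (SE) was near 0 and turned sign in most other settings, among them the fit without dates (-0.05). At 8 h M was -0.76, -0.66 and -0.11 at lowest, median and highest in saline and -0.53, -0.40 and -0.28 in MAA. All 6 MAA rats were above the saline mean there, but saline_8h animal 18, from the saline-only date of animal 30, was higher than each of them. The difference of 0.21 ± 0.10 (SE) had an adjusted p of 0.676 (limma). The difference of the effect between 12 and 4 h was 0.40 ± 0.14 (SE) with an adjusted p of 0.217 (limma), so a change of the effect over time was not shown for Plin2.

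The second Plin2 probe, 18201, was dim and stood above background on 22 of 47 arrays. Its M at 12 h was -0.60 at lowest, 0.05 at the median and 0.18 at highest in saline and -0.02, 0.48 and 0.71 in MAA. The 6 MAA rats were all above the saline mean and 4 were above every saline rat. The difference of 0.61 ± 0.21 (SE) had the sign of the first probe and an adjusted p of 0.118 (limma). At 24 h M was -0.68, -0.07 and 0.06 in saline and -0.34, 0.06 and 0.70 in MAA, with a difference of 0.42 ± 0.19 (SE) and an adjusted p of 0.303 (limma). The difference was 0.98 within 1 of the 2 shared dates of 24 h and -0.12 within the other. At 4 and 8 h the differences were 0.13 ± 0.20 and 0.10 ± 0.20 (SE). The residual SD of this probe was 0.33 against 0.13 for probe 11803, so the dim probe has the wider interval at every time.

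**Figure D2:**
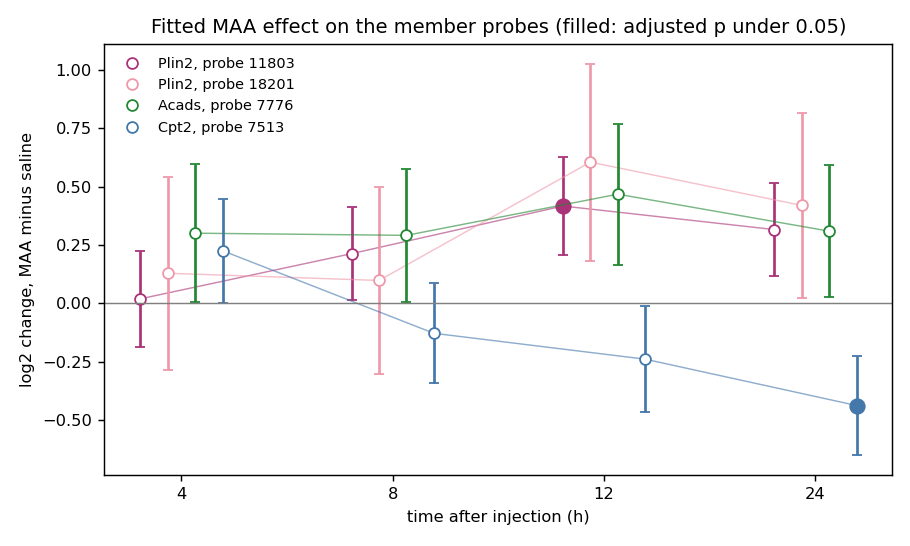
Fitted log2 change, MAA minus saline, of the 4 probes against time in hours, with 95% confidence intervals, filled where the limma adjusted p is under 0.05. Both Plin2 probes and Acads stay above 0 at each time, and Cpt2 goes from 0.23 at 4 h to -0.44 at 24 h.

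Cpt2 fell at 24 h. Its probe (Gene ID 25413) stood above background on 47 of 47 arrays. At 24 h M was 0.75 at lowest, 0.87 at the median and 0.96 at highest in the 6 saline rats. In the MAA rats it was 0.14, 0.31 and 0.84. Of the 6 MAA rats 5 lay below every saline rat, and MAA_24h animal 44, at 0.84, lay inside the saline range. This is the animal that also sat among the saline rats for Plin2. Its array was the only 24 h array of its hybridisation date, so rat and date cannot be told apart in these values. The difference was -0.44 ± 0.10 (SE), 1.35-fold lower, with an adjusted p of 0.0141 (limma). Within the 2 shared dates, each with 2 rats of either kind, it was -0.47 and -0.56. The call held in 45 of 47 fits that left out 1 array, and was lost without MAA_24h animal 40 (adjusted p = 0.0691, limma) and without MAA_24h animal 48 (adjusted p = 0.0535, limma). The call was also lost in a fit of only the 24 h arrays (-0.52, adjusted p = 0.215, limma). With the series table, most of whose columns equal the ratio of another array, the value was -0.30 (adjusted p = 0.981, limma). With the testis channel alone the difference was -0.70 (adjusted p = 7.48e-05, limma).

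At 12 h Cpt2 separated the groups completely but was not called. M was 0.78 at lowest, 0.87 at the median and 1.04 at highest in saline and 0.48, 0.54 and 0.67 in MAA. All 6 MAA rats lay below every saline rat, a pattern that 1.04% of all probes showed in that direction at 12 h. The means of M differed by -0.32 without dates, while the fit with dates gave -0.24 ± 0.11 (SE) and an adjusted p of 0.308 (limma). Within the 2 shared dates of 12 h the difference was -0.27 and -0.32.

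Cpt2 began on the other side of 0. At 4 h the 5 saline rats had M of 0.47, 0.59, 0.73, 0.76 and 1.15, and the MAA rats had 0.48 at lowest, 0.96 at the median and 1.10 at highest. The groups overlapped over nearly their whole range, and the difference of 0.23 ± 0.11 (SE) had an adjusted p of 0.670 (limma). At 8 h M was 0.62, 0.82 and 0.95 in saline and 0.45, 0.58 and 0.86 in MAA, with a difference of -0.13 ± 0.11 (SE) and an adjusted p of 0.856 (limma). The effect at 24 h lay below that at 4 h by 0.66 ± 0.15 (SE; value -0.66, adjusted p = 0.0387, limma), a difference called lower for 0.0878% of all probes. This call held in 29 of 47 fits that left out 1 array, with adjusted p-values from 0.0101 to 0.119 (limma). It was lost, with a difference between -0.60 and -0.68 and an adjusted p between 0.0503 and 0.119 (limma), without each of these 18 arrays: saline_4h animals 5, 6, 9 and 10, MAA_4h animals 4, 8, 11 and 12, saline_12h animal 25, saline_24h animals 38, 41, 42, 45 and 46, and MAA_24h animals 39, 40, 47 and 48. It was also lost without dates in the fit (-0.58), with dates as a random block (-0.60) and with the processed channels (-0.79). The test over all 4 times at once gave an adjusted p of 0.108 for Cpt2 (limma F test), with 0.127% of all probes called, and 0.426, 0.654 and 0.934 for Plin2 probe 11803, Plin2 probe 18201 and Acads.

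The fitted difference of Acads was above 0 at each time, but no single time passed the threshold. Its probe (Gene ID 64304) stood above background on 47 of 47 arrays. At 12 h M was -1.75 at lowest, -1.65 at the median and -1.39 at highest in saline and -1.35, -1.10 and -1.03 in MAA. All 6 MAA rats lay above every saline rat, as they did for 1.98% of all probes at 12 h. The difference was 0.47 ± 0.15 (SE), 1.38-fold, with an adjusted p of 0.0845 (limma), and within the 2 shared dates it was 0.42 and 0.41. It passed with dates as a random block (0.48, adjusted p = 0.0155, limma), without dates (0.48, adjusted p = 0.0150, limma), among probes above background only (adjusted p = 0.0406, limma), with an intensity trend in the prior (adjusted p = 0.0208, limma) and without MAA_4h animal 3 (adjusted p = 0.0492, limma). The filter on probes above background and the trend in the prior left the estimate of 0.47 unchanged. The difference missed the threshold in 8 of 12 other settings of the processing or the fit. Among these, median centring gave 0.29 (adjusted p = 0.619, limma) and the deposited ratio 0.37 (adjusted p = 0.266, limma). The processed channels gave 0.36 (adjusted p = 0.276, limma). With the testis channel alone the difference was 0.19, with an adjusted p of 0.722 (limma). The reference channel alone gave -0.18 with an adjusted p of 0.885 (limma), and its part in the ratio was not tested.

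At the other times the Acads groups overlapped. At 4 h the 5 saline rats had M of -1.97, -1.84, -1.42, -1.38 and -1.33, and the MAA rats had -1.64 at lowest, -1.29 at the median and -0.92 at highest. At 8 h M was -1.75, -1.42 and -1.21 in saline and -1.31, -1.06 and -1.0 in MAA. At 24 h it was -1.65, -1.48 and -1.36 in saline and -1.46, -1.19 and -0.77 in MAA. Of the 6 MAA rats 3, 4 and 5 lay above every saline rat at 4, 8 and 24 h. The differences were 0.30 ± 0.15, 0.29 ± 0.14 and 0.31 ± 0.14 (SE), with adjusted p-values of 0.669, 0.694 and 0.28 (limma). These sizes depend on the scaling. With median centring they were 0.52, 0.22 and 0.049, and with the testis channel alone 0.15, 0.28 and 0.079.

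The mean of the 4 effects was computed after their signs were seen, so it is given as a description with no test. It was 0.34 ± 0.08 (SE) for Acads, 0.24 ± 0.06 (SE) for Plin2 probe 11803, 0.31 ± 0.11 (SE) for Plin2 probe 18201 and -0.14 ± 0.06 (SE) for Cpt2. The effect was above 0 at all 4 times for 3 of the 4 probes, both of Plin2 and the one of Acads, as for 13.8% of all probes. The sign of Plin2 11803 at 4 h, near 0, turned in most of the 12 other settings of the processing or the fit. Among them were the testis channel alone, the deposited ratio, the processed channels and the fit without dates. Median centring (0.22) and scale normalization (0.01) kept the sign. Leaving out saturated spots, the filter on dim probes and the trend in the prior left the estimate of 0.02 unchanged. The sign also turned in 5 of 47 fits that left out 1 array. The place of this probe among the 3 thus depends on the setting.

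Without MAA the 3 genes showed no called change over the day. The limma F test between the 4 saline groups, in which 0.00488% of all probes were called, gave adjusted p-values of 0.929 and 0.991 for the Plin2 probes, 0.941 for Acads and 0.712 for Cpt2. A p that misses the threshold does not show that the saline groups were alike.

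RefSeq start regions of the 3 genes are shown because Plin2, Acads and Cpt2 are textbook targets of the PPAR family of fatty acid sensors in liver, and because the motifs of such factors were searched in them. Each window runs from 250 bases before to 50 bases after the transcript start in build GRCr8, 5' to 3' on the gene's strand. Capitals mark the only matches found, which are the CCAAT box read on the opposite strand.

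Plin2, chr5:106228969-106229268, minus strand: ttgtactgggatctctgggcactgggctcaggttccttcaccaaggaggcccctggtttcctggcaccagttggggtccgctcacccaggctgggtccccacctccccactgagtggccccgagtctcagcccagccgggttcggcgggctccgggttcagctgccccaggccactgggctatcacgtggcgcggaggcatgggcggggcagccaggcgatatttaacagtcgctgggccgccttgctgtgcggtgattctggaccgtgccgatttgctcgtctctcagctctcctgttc
Plin2, second start, chr5:106228488-106228787, minus strand: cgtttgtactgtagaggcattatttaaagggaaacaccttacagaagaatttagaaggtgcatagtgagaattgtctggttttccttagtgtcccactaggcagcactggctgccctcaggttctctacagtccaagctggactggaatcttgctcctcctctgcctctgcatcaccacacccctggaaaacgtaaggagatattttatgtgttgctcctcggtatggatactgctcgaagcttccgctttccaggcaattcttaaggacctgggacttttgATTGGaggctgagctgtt
Acads, chr12:47154083-47154382, plus strand: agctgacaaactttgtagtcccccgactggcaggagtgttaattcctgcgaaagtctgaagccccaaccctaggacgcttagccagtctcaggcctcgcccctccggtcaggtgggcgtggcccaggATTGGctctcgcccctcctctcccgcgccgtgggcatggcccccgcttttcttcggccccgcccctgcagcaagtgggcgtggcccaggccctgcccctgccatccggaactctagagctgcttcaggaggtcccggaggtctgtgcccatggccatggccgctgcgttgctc
Cpt2, chr5:127910769-127911068, minus strand: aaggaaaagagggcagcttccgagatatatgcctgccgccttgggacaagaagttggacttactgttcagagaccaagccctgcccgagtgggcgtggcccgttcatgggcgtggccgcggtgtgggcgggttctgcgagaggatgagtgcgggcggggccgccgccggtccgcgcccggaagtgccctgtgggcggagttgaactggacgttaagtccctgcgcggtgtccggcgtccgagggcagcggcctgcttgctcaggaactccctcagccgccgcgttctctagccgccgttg

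The PPAR response element of direct repeat 1 form, searched on both strands like the motifs after it, matched none of the 4 windows, and it matched 0.415% of 33469 rat windows of this length. The single repeat unit AGGTCA, which overlaps it, and the sterol element TCACNCCAC also had no match in these windows, against 16.2% and 1.12% of all windows. CCAAT, found in 37.5% of all windows on either strand, began at position 128 of the Acads window and at position 283 of the second Plin2 window. The first Plin2 window, Acads and Cpt2 hold 65.7%, 66.0% and 66.7% G and C, and the second Plin2 window 47.3%. The absence of a match says only that these letters are not in these windows.

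Around the 3 genes, 10 lists of lipid genes held 237 genes, of which 176 were measured. These lists were written with earlier results of these data known. No gene of them was called at 4 or 8 h, when 0.0207% and 0.0104% of all genes were called higher and 0% lower. At 12 h 9 of 176 were called higher (5.11%) and 1 lower (0.568%), against 2.58% and 0.861% of all genes by their brightest probe. At 24 h 6 were called higher (3.41%) and 1 lower (0.568%), against 3.40% and 0.912% of all genes. The median change of the 176 was 0.10 at 12 h and 0.07 at 24 h, and that of all 9644 genes was 0.05 and 0.04. Plin2 and Cpt2 are among these counts. The count at 12 h fell to 4 without saline_12h animal 30 or MAA_12h animal 31, to 5 without MAA_12h animal 28 or 36, and to 6 without saline_12h animal 25, 26, 29 or 34. At 24 h it was 2 without MAA_24h animal 40, 4 without saline_24h animal 46, MAA_24h animal 47 or MAA_24h animal 48, and 12 without MAA_4h animal 3. The higher calls at both times depend on the scaling: with median centring 0 genes of the lists were called higher at either time and 1 lower, and with the deposited ratio 2 were higher and 1 lower at 12 h. Of the calls named in the next paragraphs, median centring ended each but those of Acsl3 at 12 h and Cpt2 at 24 h. The testis channel alone ended those of Cav2 (0.43), Etfb (0.30), Ppargc1b (0.14) and Scd2 (0.26) at 12 h, and of Agpat1 (0.25), Lipa (0.53), Scd2 (0.23) and Scp2 (0.28) at 24 h.

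**Figure D3:**
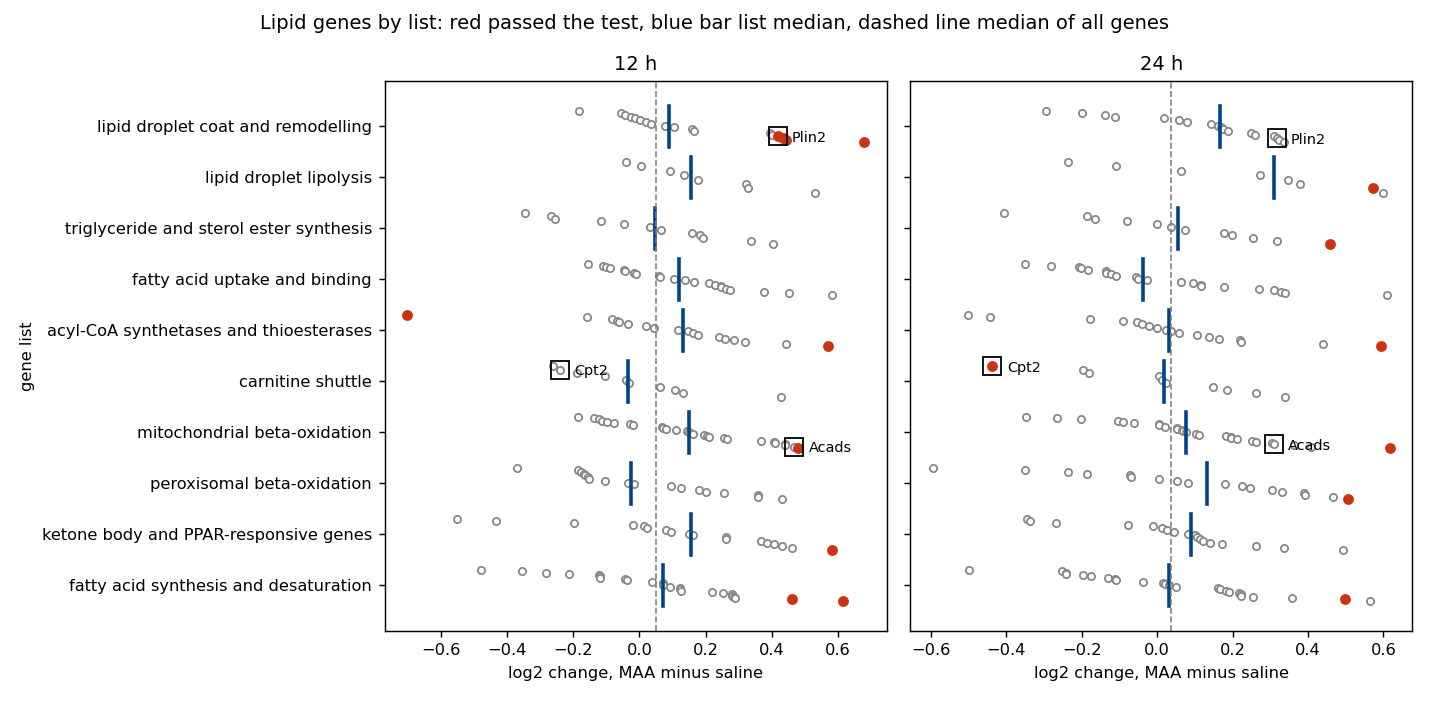
Log2 change, MAA minus saline, of each measured gene of the 10 lipid lists at 12 h (left) and 24 h (right), red where called by limma, with Plin2, Acads and Cpt2 boxed, list medians in blue and the median of all genes dashed. Plin2 lies beside 2 of the other called droplet genes at 12 h, Acads beside the called Etfb, and Cpt2 is the lowest gene of the carnitine list at 24 h.

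Among droplet coat genes, 4 of 18 were called higher at 12 h and none lower, and none at 24 h, with list medians of 0.09 and 0.17. Of all genes 2.58% were called higher at 12 h and 3.40% at 24 h. Plin2 is 1 of the 4, and the others were Plin3, a perilipin that moves between cytosol and droplets, Hsd17b11, a droplet-bound dehydrogenase, and Cav2, a caveolin. Plin3 differed by 0.43 ± 0.11 (SE) at 12 h with an adjusted p of 0.0230 (limma), close to the size for Plin2. Hsd17b11 differed by 0.44 ± 0.11 (SE) and Cav2 by 0.68 ± 0.14 (SE) at 12 h. With the deposited ratio the calls of Plin3 (0.37, adjusted p = 0.0626, limma) and Hsd17b11 (0.34, adjusted p = 0.103, limma) were lost. That of Cav2 stayed (0.60, adjusted p = 0.0340, limma). Plin5, the perilipin of oxidative tissues, is named for its role after its values were seen, with -0.04 ± 0.16 (SE) at 12 h and -0.20 ± 0.15 (SE) at 24 h. Of 8 lipolysis genes 1 was called, at 24 h: Lipa, the lysosomal acid lipase, at 0.57 ± 0.16 (SE). Its call was lost in 30 of 47 fits that left out 1 array. Of 12 genes of triglyceride and sterol ester synthesis 1 was called, at 24 h: Agpat1, an acyltransferase of phosphatidic acid synthesis, at 0.46 ± 0.13 (SE). The Agpat1 call was lost in 10 of 47 fits that left out 1 array.

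Cpt2 was the 1 called gene of the 10 measured in the carnitine shuttle, whose median was -0.04 at 12 h and 0.02 at 24 h. Cpt2 was called lower at 24 h, as were 0.912% of all genes. Its partners are named for their roles after their values were seen. Cpt1b, which makes the carnitine esters on the outer membrane, differed by -0.04 ± 0.11 (SE) at 12 h and 0.01 ± 0.10 (SE) at 24 h. Slc25a20, the carrier that brings these esters to Cpt2, differed by -0.10 ± 0.14 (SE) at 12 h and -0.20 ± 0.13 (SE) at 24 h. Cpt1a, above background on 17 of 47 arrays, differed by 0.13 ± 0.22 (SE) at 12 h and 0.01 ± 0.20 (SE) at 24 h. The difference between these genes and Cpt2 was not tested.

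Of 27 genes of mitochondrial beta-oxidation 1 was called higher at 12 h and at 24 h, and none lower, with list medians of 0.15 and 0.08. This was Etfb, a subunit of the electron transfer flavoprotein that takes up the electrons from Acads. The share of all genes called higher was 2.58% at 12 h and 3.40% at 24 h. Etfb differed by 0.48 ± 0.13 (SE; adjusted p = 0.0353, limma) at 12 h and by 0.62 ± 0.12 (SE; adjusted p = 0.00281, limma) at 24 h. Without animals 3 and 27 the 12 h value was 0.46 (adjusted p = 0.0572, limma). The dehydrogenases for longer chains are named for their roles after their values were seen. At 12 h Acadm (medium chains) differed by 0.07 ± 0.17 (SE), Acadl (long chains) by 0.15 ± 0.14 (SE) and Acadvl (very long chains) by 0.25 ± 0.14 (SE), and none was called. Acads at 0.47 was above each of these, and the difference between the genes was not tested.

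For the remaining lists, the shares of all genes called were 2.58% higher and 0.861% lower at 12 h, and 3.40% and 0.912% at 24 h. Among these lists, acyl-CoA synthetases held a called gene in each direction. Acsl4, which prefers arachidonic acid, was higher at 12 h (0.57 ± 0.16, SE) and at 24 h (0.59 ± 0.15, SE) by probe 5904, the former past the threshold in 9 of 47 fits that left out 1 array, and the 12 h call was also lost without animals 3 and 27 (0.51). Its probe 4455 was not called at either time (0.20 and 0.21). Acsl3, a droplet-bound synthetase, was lower at 12 h by a value of -0.70 ± 0.16 (SE). In peroxisomal beta-oxidation 1 of 18 was called, at 24 h: Scp2, which encodes a sterol carrier and a peroxisomal thiolase, at 0.51 ± 0.11 (SE). Among 25 genes of fatty acid synthesis, Scd2, a desaturase, was higher at 12 h (0.62 ± 0.13, SE; 0.37 with median centring) and at 24 h (0.50 ± 0.12, SE; 0.15 with median centring), and Scap, the escort of the sterol response factors, at 12 h (0.46 ± 0.13, SE). The Scap call was lost in 12 of 47 fits that left out 1 array, and with the deposited ratio (0.36, adjusted p = 0.132, limma). Among 18 ketone body and PPAR-responsive genes, Ppargc1b was higher at 12 h by 1 of its 3 probes (0.58 ± 0.15, SE, probe 19162). The other Ppargc1b probes, above background on 16 and 6 of 47 arrays, had -0.27 and -0.05. Its call was lost without animals 3 and 27 (adjusted p = 0.0561, limma) and with the testis channel alone (0.14, adjusted p = 0.786, limma). Of 22 uptake and binding genes none was called, and Fabp5, a fatty acid binding protein with the lowest adjusted p among them, had 0.27 ± 0.10 (SE) and an adjusted p of 0.143 (limma) at 24 h.

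Markers of cell types were described by counts, medians and the mean M of each list. Of all genes by their brightest probe, 2.58% were called higher and 0.861% lower at 12 h. At 24 h these shares were 3.40% and 0.912%. The mean M of 18 Sertoli cell markers was 0.10 to 0.39 on the saline arrays of 12 h and 0.41 to 0.48 on the MAA arrays. At 12 h 1 of the 18 was called higher. The mean M of 10 spermatocyte markers was 0.98 to 1.14 in saline and 0.70 to 0.94 in MAA at 12 h, with 3 of 10 called lower (Sycp1, Sycp2 and Sycp3), while 4 of 10 lay above 0 and the median change was -0.05. At 24 h the spermatocyte mean was 0.83 to 1.07 in saline and 0.70 to 0.93 in MAA, with Smc1b called higher, Mlh3 lower and 4 of 10 above 0. The Sertoli mean at 24 h was 0.20 to 0.48 in saline and 0.38 to 0.66 in MAA. The mean M of 12 elongating spermatid markers at 12 h was 0.10 to 0.31 in saline and 0.28 to 0.71 in MAA, with 12 of 12 above 0, a median change of 0.29 and 2 called higher (Hils1 and Spata18). At 24 h 9 of these 12 lay above 0, with a median of 0.30 and 0 called. Of 6 peritubular myoid markers 2 were called higher at 12 h (Myl9 and Actg2) and 1 at 24 h (Myl9), and their mean M at 12 h was -1.84 to -1.51 in saline and -1.61 to -1.24 in MAA. Of 7 spermatogonial markers 1 was called higher at each of 12 h (Uchl1) and 24 h (Id4), and of 7 round spermatid and 10 endothelial markers 0 were called at either time. The 9 Leydig cell markers had a mean of -0.15 to 0.16 in saline and -0.11 to 0.19 in MAA at 12 h, and of -0.29 to 0.03 and 0.03 to 0.15 at 24 h, where 2 of 9 were called higher. The 17 macrophage and leukocyte markers had a mean of -1.13 to -0.99 in saline and -1.01 to -0.74 in MAA at 12 h, and 0 of 17 were called. The part of these cells in the changes of Plin2, Acads and Cpt2 was not tested. Of 8 measured adipocyte markers, 0 were called at each time, and Fabp4 stood above background on 4 of 47 arrays. Their mean M at 12 h was -1.21 to -0.49 in saline and -0.64 to -0.44 in MAA. Of 3 blood cell and 7 epididymis markers, 0 were called at 12 h, and 1 of each list was called higher at 24 h.

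The genes most like each member over the 47 arrays, after date effects were subtracted, were named by Pearson's r as a description. All arrays share the reference RNA and the MAA contrast, so such an r holds both. For Plin2 they were Anxa5 (r = 0.84), an annexin, Gstp1 (r = 0.83), a glutathione transferase, and Rhbdd1 (r = 0.82), a rhomboid protease. For Acads they were Tnk2 (r = 0.81), a kinase, Myl12b (r = 0.76), a myosin light chain, and Gas5 (r = 0.75), a noncoding RNA. For Cpt2 they were Trim11 (r = 0.82), a ubiquitin ligase, Tigar (r = 0.77), a phosphatase of sugar metabolism, and Bbs1 (r = 0.76), a ciliary protein. None of these 9 is on the lipid lists. Among the members, Plin2 probe 11803 had r = 0.60 with probe 18201, 0.61 with Acads and -0.55 with Cpt2 over the 47 arrays. With the group means also subtracted these were 0.23, 0.31 and -0.28. Acads and Cpt2 had r = -0.35 with dates subtracted and -0.36 with group means also subtracted. Probe 18201 had 0.49 with Acads and -0.32 with Cpt2, and 0.23 and -0.06 with group means also subtracted.

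**Figure D4:**
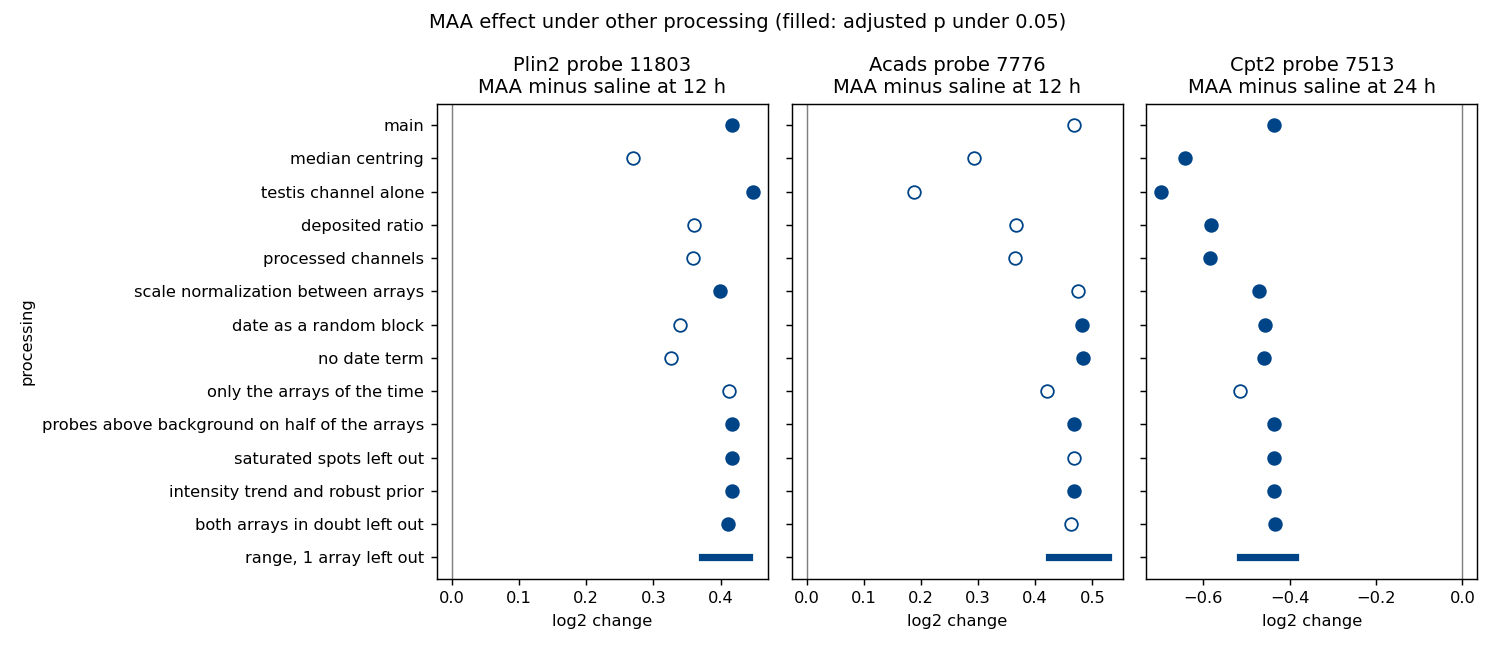
Log2 change, MAA minus saline, of Plin2 probe 11803 at 12 h, Acads at 12 h and Cpt2 at 24 h under each way of processing, filled where the limma adjusted p is under 0.05, with bars for the range over fits that left out 1 array. The reference channel alone and the series table are not drawn. In the 13 settings drawn Plin2 and Acads lie above 0 and Cpt2 below 0, and Plin2 is called in 6 of the 12 alternatives, Acads in 4 and Cpt2 in 11. Leaving out saturated spots, the filter on dim probes and the trend in the prior do not move the values.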

How the data were processed

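Testis RNA of 47 rats in 8 groups was measured on 47 arrays of 2 colours, each against a common reference. Per the file headers, the deposited intensities are raw and processed spot values of both channels; no column holds a background, so the planned correction for it was not possible. The deposited ratio is a log2 value that the authors normalized; how they did so is not stated in the labels or headers. Of 22573 spots, 2073 have no processed value and were left out. The deposited series table served only as an alternative: of its columns 7 equal the log2 ratio of their own array, 39 that of another and 1 none (tolerance 1e-06).

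M was computed from the raw intensities by loess within each array. It correlated with the deposited ratio at 0.984 or more. Symbols came from the platform annotation and RefSeq (12736 probes with 1 symbol, 5 with several, 7759 with none). A gene counts in a list by its brightest probe.

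The model, run for every probe in limma 3.58.1 (R 4.3.3; lmFit, then eBayes), had 8 groups and 12 hybridisation dates as fixed terms and 28 residual and 6.75 prior degrees of freedom. Its two-sided p-values were adjusted by Benjamini-Hochberg over 20500 probes and called under 0.05. Of the dates 8 hold both treatments, 2 MAA only and 2 saline only. The number of arrays limits the precision: over all probes the SE had a median of 0.182 (4 h), 0.176 (8 h), 0.186 (12 h) and 0.174 (24 h). The code was tested on simulated data. Genes, lists and tests were chosen with earlier results of these data known. All probes of the 3 genes are named, and of each list every gene called at any time, or else the one with the lowest adjusted p. Likeness is Pearson's r, 3 genes per member. Alternatives were other scalings, channels, date terms, filters and leaving out each array.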

Additional observations from a re-analysis of the deposited data

Results flagged for a closer look

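For Plin2 probe 18201 at 8 h, saline animal 14 had an M of -0.44, and the nearest of the other 5 saline rats had 0.20. For Acads at 12 h, MAA animal 31 had an M of -1.35, and the nearest of the other 5 MAA rats had -1.12, so it lay closest to the saline group, without reaching it. These are 2 of 32 groups examined for a sample that stands apart, and chance alone marks about 1 in 20. The Cpt2 effect at 24 h differed from that at 4 h by -0.66 (adjusted p = 0.0387, limma).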

How the results depend on the processing

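The cause of each change given here was not tested, except that fits on fewer arrays or probes have fewer degrees of freedom or fewer tests. No paired analysis was possible because animal numbers do not recur between groups. The Cpt2 fall at 24 h was past the threshold in 11 of 12 other settings that read each array's own testis signal, and the Plin2 rise at 12 h in 6 of 12. Among these, leaving out saturated spots, the filter on dim probes and the trend in the prior left the estimates unmoved. They changed only the prior or the number of tests. The reference channel alone holds no testis RNA and most columns of the series table equal the ratio of another array, so neither was counted among these settings. The reference channel enters each ratio, and its part in the changes was not tested. Probe 18201 was not tested among probes above background on most arrays, and it is the measurement most limited by signal. Leaving out saturated spots changed no call of the 3 genes, but none of their spots was saturated, so it could not alter their values. No background correction could be run.

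With median centring, calls over all probes numbered 14, 1, 153 and 193 at 4, 8, 12 and 24 h, calls in the lipid lists 1 and 1 at 12 and 24 h and F test calls between times 139 and between saline groups 0. Median centring lost the call of Plin2 11803 (0.27 at 12 h), and turned the sign of Fabp5 (-0.12 at 24 h). With the testis channel alone, calls over all probes numbered 17, 32 and 1075 at 4, 8 and 24 h, calls in the lipid lists 11 at 24 h and F test calls between times 50 and between saline groups 0. The testis channel alone gained a call of Plin2 11803 (0.36 at 24 h), and turned the sign of Plin2 11803 (-0.012 at 4 h). With the reference channel (headed Cy5) alone, calls over all probes numbered 2, 0, 0 and 0 at 4, 8, 12 and 24 h, calls in the lipid lists 0 and 0 at 12 and 24 h and F test calls between times 0. In that channel the values were, without a call, for Plin2 11803 (0.094 at 12 h) and Cpt2 (-0.12 at 24 h), and of the opposite sign for Plin2 11803 (-0.022 at 4 h, -0.016 at 8 h), Plin2 18201 (-0.025 at 4 h), Acads (-0.15 at 4 h, -0.052 at 8 h, -0.18 at 12 h, -0.16 at 24 h), Cpt2 (-0.14 at 4 h, 0.12 at 8 h), Cav2 (-0.18 at 12 h), Etfb (-0.086 at 12 h, -0.11 at 24 h), Ppargc1b (-0.37 at 12 h), Scd2 (-0.21 at 12 h, -0.18 at 24 h), Agpat1 (-0.092 at 24 h), Lipa (-0.091 at 24 h), Scp2 (-0.13 at 24 h) and the Cpt2 difference of 24 and 4 h (0.019). With the deposited ratio, calls over all probes numbered 5 and 378 at 8 and 24 h, calls in the lipid lists 3 and 2 at 12 and 24 h and F test calls between saline groups 0. The deposited ratio lost the call of Plin2 11803 (0.36 at 12 h), and turned the sign of Plin2 11803 (-0.013 at 4 h). With the processed channels, calls over all probes numbered 7, 6 and 354 at 4, 8 and 24 h, calls in the lipid lists 2 and 2 at 12 and 24 h and F test calls between saline groups 0. The processed channels lost the call of Plin2 11803 (0.36 at 12 h) and the Cpt2 difference of 24 and 4 h (-0.79), and turned the sign of Plin2 11803 (-0.013 at 4 h). With the series table as labelled, in which 39 columns equal the ratio of another array, calls over all probes numbered 0, 0, 0 and 0 at 4, 8, 12 and 24 h, calls in the lipid lists 0 and 0 at 12 and 24 h and F test calls between times 0 and between saline groups 0. The series table lost the call of Cpt2 (-0.30 at 24 h) and the Cpt2 difference of 24 and 4 h (-0.29), and turned the sign of Plin2 11803 (-0.033 at 4 h, -0.21 at 8 h, -0.11 at 12 h, -0.099 at 24 h), Plin2 18201 (-0.26 at 4 h, -0.47 at 8 h, -0.0015 at 12 h, -0.090 at 24 h), Acads (-0.055 at 4 h, -0.34 at 8 h), Cpt2 (-0.010 at 4 h, 0.23 at 8 h, 0.029 at 12 h), Acsl3 (0.051 at 12 h), Acsl4 (-0.18 at 12 h, -0.18 at 24 h), Cav2 (-0.19 at 12 h), Etfb (-0.028 at 12 h, -0.12 at 24 h), Hsd17b11 (-0.11 at 12 h), Plin3 (-0.21 at 12 h), Ppargc1b (-0.084 at 12 h), Scap (-0.11 at 12 h), Scd2 (-0.15 at 12 h, -0.14 at 24 h), Agpat1 (-0.018 at 24 h) and Lipa (-0.080 at 24 h). With scale normalization between arrays, calls over all probes numbered 7, 5 and 320 at 4, 8 and 12 h, calls in the lipid lists 5 at 12 h and F test calls between saline groups 0. Scale normalization gained a call of Plin2 11803 (0.33 at 24 h). With dates as a random block, calls over all probes numbered 10 and 18 at 4 and 8 h and F test calls between saline groups 0. The random block lost the call of Plin2 11803 (0.34 at 12 h) and the Cpt2 difference of 24 and 4 h (-0.60), gained a call of Acads (0.48 at 12 h), and turned the sign of Plin2 11803 (-0.041 at 4 h). Without dates, calls over all probes numbered 13 at 8 h and F test calls between times 10 and between saline groups 0. Leaving dates out lost the call of Plin2 11803 (0.33 at 12 h) and the Cpt2 difference of 24 and 4 h (-0.58), gained a call of Acads (0.48 at 12 h), and turned the sign of Plin2 11803 (-0.053 at 4 h) and Plin2 18201 (-0.00014 at 8 h). With only the arrays of 1 time, calls over all probes numbered 0, 0, 0 and 16 at 4, 8, 12 and 24 h and calls in the lipid lists 0 and 0 at 12 and 24 h. Fitting 1 time alone lost the call of Plin2 11803 (0.41 at 12 h) and Cpt2 (-0.52 at 24 h), and turned the sign of Plin2 11803 (-0.022 at 4 h). With dim probes left out, calls over all probes numbered 13, 10, 883 and 977 at 4, 8, 12 and 24 h, calls in the lipid lists 15 at 24 h and F test calls between times 149 and between saline groups 0. The filter on dim probes gained a call of Acads (0.47 at 12 h) and Plin2 11803 (0.32 at 24 h). With an intensity trend and robust prior, calls over all probes numbered 13, 15, 901 and 962 at 4, 8, 12 and 24 h, calls in the lipid lists 13 at 24 h and F test calls between times 285 and between saline groups 0. The trend and robust prior gained a call of Acads (0.47 at 12 h) and Plin2 11803 (0.32 at 24 h). Without MAA_4h animal 3 and MAA_12h animal 27 together (chosen after seeing the data), calls over all probes numbered 8 at 8 h, calls in the lipid lists 11 at 24 h and F test calls between times 97 and between saline groups 0. Leaving out both arrays gained a call of Plin2 11803 (0.33 at 24 h), and turned the sign of Plin2 11803 (-0.011 at 4 h).

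Over the 47 fits that left out 1 array, all-probe calls ranged from 2 to 9 at 8 h, 226 to 614 at 12 h and 305 to 777 at 24 h, those of the lipid lists from 4 to 12 at 12 h and 2 to 12 at 24 h, and the F test calls from 0 to 82 between times and 0 to 2 between saline groups. The Plin2 11803 change ranged from -0.022 to 0.086 at 4 h, 0.37 to 0.44 at 12 h and 0.24 to 0.36 at 24 h, and that of Plin2 18201 from -0.031 to 0.20 at 8 h. Acads ranged from 0.42 to 0.53 at 12 h, Cpt2 from -0.52 to -0.39 at 24 h and its difference of 24 and 4 h from -0.74 to -0.60. Within single dates, Plin2 11803 had -0.11 on date 8 (4 h) and 0.49 on date 5 (24 h), and Plin2 18201 had -0.27 on date 8, 0.98 on date 5 and -0.12 on date 11 (24 h).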
